A study of Homo sapiens with 18 samples.

Results

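The transcriptome of A375 cells in which TADA2B had been knocked out was compared with that of A375 cells carrying a control guide RNA. A375 is an established human melanoma cell line. The comparison used the 9 libraries without SOX10 overexpression of the 18 in the series: 3 with a control guide against GFP, whose genotype is labelled WT, 3 with TADA2B guide 1 and 3 with TADA2B guide 2. Culture was in DMEM plus fetal bovine serum for each group. The knockout was made with a pair of guides, so there were 2 knockout lines, and the sources used here do not say whether each was a pool of cells or 1 clone. The labels give neither the time between knockout and harvest nor whether the numbered libraries of a group came from separate cultures, so p-values measure the spread between these libraries, which may be technical. Unless a guide is named, a change is the mean of both guides, weighted equally, against control.

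TADA2B is a subunit of SAGA, a large coactivator complex that acetylates histone H3 at promoters through KAT2A or KAT2B and removes ubiquitin from histone H2B through USP22. TADA2B holds the acetyltransferase in SAGA, whereas the related ATAC complex uses TADA2A in its place. Both complexes act at very many genes. SOX10, the transcription factor that maintains the melanocyte and Schwann cell lineages, is among the genes on which melanoma cells of the A375 type depend.

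TADA2B (ENSG00000173011; hg38 chromosome 4, 7041899 to 7057952) was read at 32.8, 32.2 and 32.5 counts-per-million (CPM, with TMM scaling) in the control libraries, at 26.1, 25.6 and 26.4 CPM with guide 1 and at 28.6, 27.5 and 30.2 CPM with guide 2. All 6 knockout libraries lay below the 3 control libraries (log2 change −0.25, adjusted p = 1.16e-06, and −0.09 with adjusted p = 0.047 under library-size scaling). A guide changes a few bases of the gene and need not lower its transcript, so these values do not measure the protein. SOX10 (ENSG00000100146; chromosome 22, 37970686 to 37987422) stood at 341 to 364 CPM in control, 81.2 to 87.0 CPM with guide 1 and 39.9 to 46.1 CPM with guide 2, and fell 5.88-fold (adjusted p = 1.23e-34). Of 9 genes listed for the melanocyte lineage, which include SOX10, MITF, PMEL and PRAME, 8 were tested, 2 rose and 6 fell. Their summed level was 535 to 563 CPM in control, 296 to 301 CPM with guide 1 and 258 to 272 CPM with guide 2. Of these falls, that of MLANA lost its call in 10 alternative settings, and PRAME (log2 change −0.11) stood at 0.05 under library-size scaling, not called. MLANA was near 1 CPM and TYR at or near 0 in all libraries. Most of the summed level thus came from SOX10, MITF and PRAME rather than from pigment genes. MITF rose, from 39.1 to 40.1 CPM in control to 82.4 to 86.4 CPM with guide 1 and 90.0 to 95.4 CPM with guide 2. The fall of the sum was mostly that of SOX10. S100B fell too, from 14.1 to 14.5 CPM in control to 1.21 to 3.76 CPM in the knockout libraries. Of 25 tested genes of another list, for SOX10 and the Schwann lineage, 19 fell and 3 rose (17 and 4 under library-size scaling). Of these, 15 fell at least 2-fold, and the median log2 change was −1.88. Of all genes tested 29.5% fell.

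The 9 libraries held 65018512 to 79874237 counts. A count of 3 equalled 0.0359 to 0.0461 CPM. Pairs of libraries of 1 group differed by a chi-square per degree of freedom of 3.54 to 11.8, and guide 2 replicate 2 stood somewhat apart from the others of its group, at 11.8 and 10.4. Fold changes below use TMM scaling, which assumes that most genes do not change, and scaling to the library total instead raised the median over the genes tested by 0.156 on the log2 scale. Directions of small changes are therefore relative to TMM scaling. Counts under library-size scaling stand beside many, but not all, of those whose split of higher and lower it moves by over 10 percentage points. Those for each guide alone are in the last section. Counts by fold size and counts of genes without overlap are given with TMM scaling only.

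Of 21060 genes tested, 12230 changed, which is 58.1%, at a Benjamini-Hochberg adjusted p under 0.05 in edgeR's quasi-likelihood test. Of these, 6025 genes rose (28.6% of those tested) and 6205 fell (29.5%). With guide 1 alone 11086 genes changed (52.6%), 5518 higher (26.2%) and 5568 lower (26.4%). With guide 2 alone 11775 genes changed (55.9%), 5867 higher (27.9%) and 5908 lower (28.1%). The guides share the control libraries. Under library-size scaling the mean of the guides gave 9112 genes higher (43.3%) and 3545 lower (16.8%). In 5232 genes (24.8%) all 6 knockout libraries lay above all 3 control libraries, and in 5315 genes (25.2%) all lay below.

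Most of these changes were small. Of the genes called, 4992 (40.8%) changed by less than 1.25-fold, 2407 (19.7%) by 1.25 to 1.5-fold and 1682 (13.8%) by 1.5 to 2-fold. A further 1802 (14.7%) changed by 2 to 4-fold and 1347 (11.0%) by 4-fold or more. The median fold was 1.34 over all genes called, 1.48 in those that rose and 1.26 in those that fell. By size, 3009 of the genes that fell did so by less than 1.25-fold, against 1983 of those that rose, while 937 rose and 410 fell by 4-fold or more. At a threshold of 2-fold, 2015 genes were higher (9.57%) and 1134 lower (5.38%). With a minimum mean of 1 CPM these counts were 843 and 601. At the other end, 692 genes (3.29%) had a 95% interval of the log2 change that lay wholly within 0.1 of 0.

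The most abundant genes took a smaller share of the counts, and counts became spread over more genes. These shares need no scaling factor, but a share also falls when other genes rise. The 100 most abundant genes of a library took 16.26 to 16.31% of its counts in control, 14.23 to 14.25% with guide 1 and 14.03 to 14.13% with guide 2. The 1000 most abundant took 50.4 to 50.5% in control, 47.2 to 47.3% with guide 1 and 47.0 to 47.3% with guide 2. The number of genes with at least 1 CPM by library total was 13630 to 13728 in control, 14171 to 14227 with guide 1 and 14150 to 14206 with guide 2. In each of these measures all knockout libraries lay apart from all control libraries. The guides overlapped each other in the share of the 1000 most abundant genes and in the number of genes. A two-sided exact permutation test of the 6 knockout against the 3 control libraries gave p = 0.0238 for each, the smallest value it can give (0.0286 adjusted over 6 measures); the 6 libraries come from 2 lines.

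**Figure D1:**
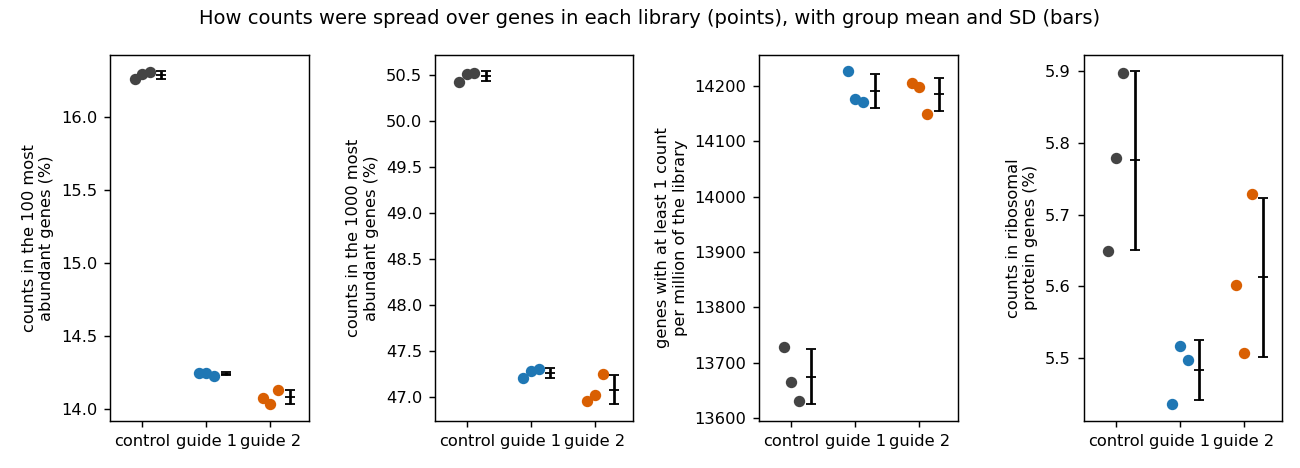
Share of counts in the 100 and the 1000 most abundant genes (%), number of genes with at least 1 CPM by library total, and share of counts in ribosomal protein genes (%), by library. Points are libraries and bars the group mean with its SD; vertical axes do not start at 0. In the first 3 panels all knockout libraries lie apart from the control libraries, while the ribosomal protein share of guide 2 overlaps control.

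The same shift was seen gene by gene. Of the 77 genes that were among the 100 most abundant in all 9 libraries, 73 fell and 1 rose, with a median log2 change of −0.254 (54 lower and 5 higher under library-size scaling). Of 65 genes with a mean of at least 1000 CPM over the 9 libraries, 93.8% fell and 1.54% rose (median log2 change −0.269), and under library-size scaling 75.4% were still lower and 6.15% higher. Between 100 and 1000 CPM, 59.7% of 2485 genes fell and 20.4% rose. Under library-size scaling that order turned round, with 29.1% lower and 48.2% higher. Between 10 and 100 CPM 37.7% of 6995 genes fell and 34.5% rose, which library-size scaling turned to 19.2% lower and 57.4% higher. Between 1 and 10 CPM 36.6% of 4552 genes rose and 25.9% fell, in the same order as under library-size scaling (47.1% and 17.1%). These bins were chosen after the values were seen. Genes called higher held 15.6 to 15.7% of the counts in control, 21.5 to 21.6% with guide 1 and 22.2 to 22.5% with guide 2, and genes called lower went from 67.1 to 67.4% to 59.5 to 59.6% and 58.1 to 58.6%. These last shares use the contrast that chose the genes and are a description.

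**Figure D2:**
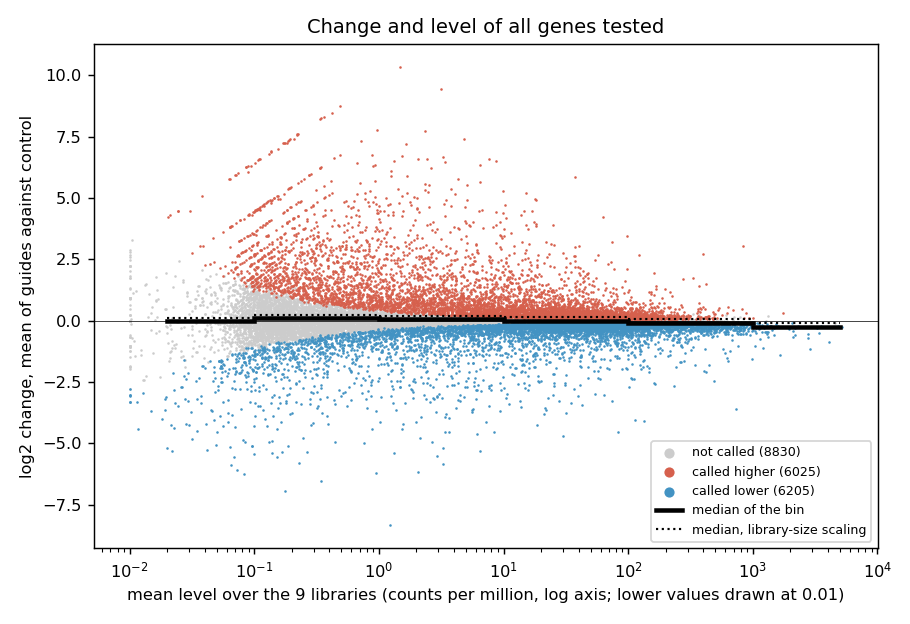
Log2 change (mean of guides against control) against the mean level over the 9 libraries (CPM, log axis), with 1 point per gene tested and genes called higher in red and lower in blue. Solid lines are bin medians with TMM scaling and dotted lines those with library-size scaling; the solid line falls to −0.269 at the right, and the largest rises lie at low and middle levels.

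The 5 genes with the largest falls in CPM were HSP90AA1, SERPINE2, TIMP3, THBS1 and GAPDH. HSP90AA1, the stress-inducible cytosolic HSP90 chaperone, was at 5890 to 5958 CPM in control, 3331 to 3409 CPM with guide 1 and 3024 to 3129 CPM with guide 2, a fall of 0.88 on the log2 scale (SE 0.018, adjusted p = 4.78e-34). SERPINE2, a secreted inhibitor of thrombin and urokinase, was at 4448 to 4497 CPM in control, 2437 to 2546 CPM with guide 1 and 1571 to 1647 CPM with guide 2. TIMP3, a matrix-bound inhibitor of metalloproteases, was at 1849 to 1865 CPM in control, 217 to 225 CPM with guide 1 and 102 to 106 CPM with guide 2, which is 12.2-fold lower (adjusted p = 3.40e-54). For each of these genes the 3 groups were fully apart, with guide 2 the lowest. THBS1, a matricellular glycoprotein, went from 2723 to 2848 CPM in control to 1212 to 1331 CPM with guide 1 and 888 to 925 CPM with guide 2. GAPDH, the glycolytic enzyme often used as a loading reference, went from 3529 to 3845 CPM to 2420 to 2469 CPM with guide 1 and 2030 to 2229 CPM with guide 2, and was 1.63-fold lower. All 5 were also called lower under library-size scaling.

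The 5 genes with the largest gains in CPM were TGM2, CPA4, TGFBI, CD55 and IGFBP4. TGM2, a transglutaminase that crosslinks proteins, was at 135, 141 and 146 CPM in control, 1079, 1052 and 1085 CPM with guide 1 and 1326, 1174 and 1320 CPM with guide 2, and was 8.31-fold higher (log2 change 3.06, SE 0.038). CPA4, a secreted carboxypeptidase, rose from 76.9 to 88.4 CPM in control to 511 to 526 CPM with guide 1 and 584 to 598 CPM with guide 2. TGFBI, a matrix adhesion protein, rose from 188 to 204 CPM to 543 to 562 CPM and 519 to 528 CPM. In the last gene, unlike the others so far, guide 2 gave the smaller rise. CD55, which shields cells from complement, rose 3.36-fold from 125 to 137 CPM, and IGFBP4, which binds insulin-like growth factors, rose 2.67-fold from 171 to 178 CPM.

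Among genes with at least 10 CPM in control, the largest rise by fold was that of ANKRD1, an ankyrin-repeat protein and classic target of the coactivator YAP. Its level was 11.8, 11.9 and 13.9 CPM in control, 102, 109 and 112 CPM with guide 1 and 171, 178 and 172 CPM with guide 2 (10.9-fold, adjusted p = 1.11e-18). STC1, a secreted glycoprotein hormone, was at 10.3 to 12.2 CPM in control and at 101 to 113 CPM in all knockout libraries, 9.34-fold higher. The largest rises then included KRT8, a keratin of simple epithelia, from 12.2 to 12.5 CPM in control to 70.7 to 72.8 CPM with guide 1 and 81.0 to 91.3 CPM with guide 2, and IL11, a cytokine of the IL-6 family, from a mean of 26.5 CPM to 139 to 154 CPM and 189 to 197 CPM. The falls in this class were larger than the rises. FAT3, a giant cadherin, fell 39.6-fold, from 17.1 to 19.3 CPM in control to 0.625 to 0.720 CPM with guide 1 and 0.192 to 0.431 CPM with guide 2. HMCN1, a basement membrane protein, fell 25.8-fold, from 77.5 to 87.8 CPM to 3.83 to 5.25 CPM and 2.11 to 2.85 CPM. HAPLN1, the link protein that binds hyaluronan to proteoglycan, fell 23.1-fold, from 224 to 233 CPM to 12.4 to 14.2 CPM and 6.97 to 7.66 CPM. PDE3A, a cyclic nucleotide phosphodiesterase, fell 23.4-fold from 22.2 to 23.6 CPM, and COL19A1, a minor collagen, fell 18.9-fold from 47.9 to 51.4 CPM. ART3, of the ADP-ribosyltransferase family, was at 15.6 to 17.0 CPM in control, 1.71 to 1.85 CPM with guide 1 and 0.132 to 0.337 CPM with guide 2, so that here the guides themselves stood far apart.

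**Figure D3:**
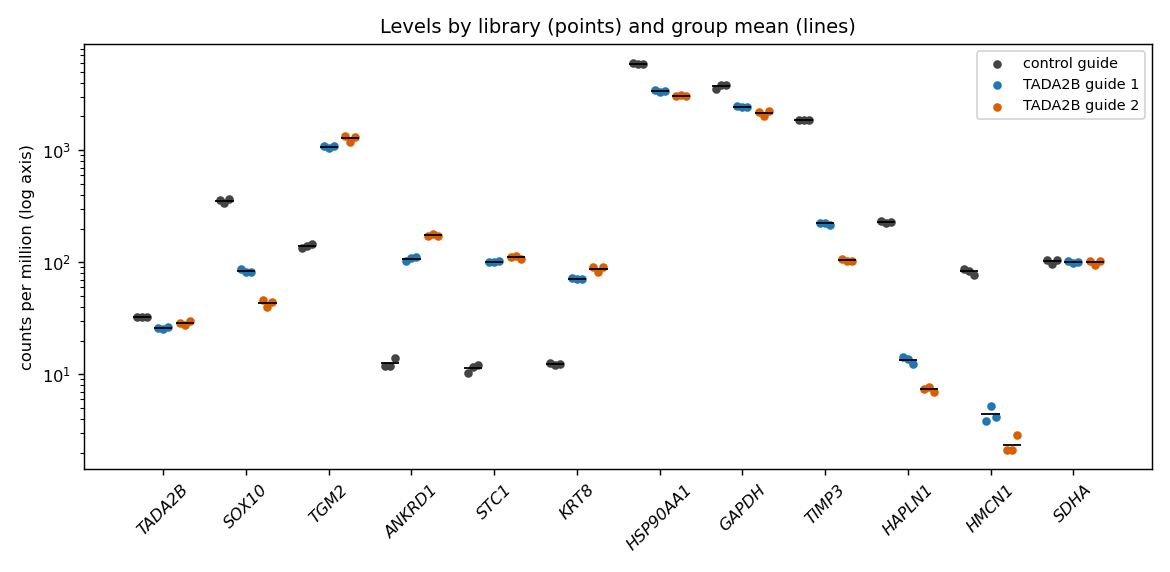
Level in each library (CPM, log axis) of 12 genes in control (grey), guide 1 (blue) and guide 2 (orange); points are libraries and lines group means. SDHA, at 94.3 to 105 CPM throughout, shows the spread of a gene that was not called, while TIMP3, HAPLN1 and HMCN1 step down from control to guide 1 to guide 2.

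Few genes went from silent to expressed. Switched on was defined as under 0.1 CPM in every control library and at least 1 CPM in every knockout library, and 27 genes met it, 24 of them protein coding. The reverse was met by 1 gene. TNNT2, the cardiac troponin T, had 1 count in all control libraries together and 2174 in the knockout libraries, where it stood at 3.62 to 5.79 CPM. ANO2, a calcium-activated chloride channel, had 8 control counts and 5.96 to 8.32 CPM in the knockout libraries. SHOC1, a meiotic crossover protein, had 11 control counts and 3.71 to 6.28 CPM, and LYPD6B, of the LY6 family, had 10 control counts and 3.08 to 4.77 CPM. SLC24A2, a sodium, potassium and calcium exchanger, was the gene switched off, with 3.08 to 4.20 CPM in control, 0.0693 to 0.0753 CPM with guide 1 and no count in any guide 2 library.

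The subunits of SAGA itself changed little. All 25 were tested, 12 rose and 8 fell (16 and 3 under library-size scaling), beside 28.6% and 29.5% of all genes tested. The range of their log2 changes was −0.43 to 0.40 and no subunit changed 2-fold. The largest rise was that of TADA3, the partner of TADA2B in the acetyltransferase module, at 50.9 to 53.1 CPM in control and 65.4 to 72.5 CPM in the knockout libraries (1.31-fold, adjusted p = 1.72e-13). The deepest fall was that of USP22, the deubiquitinase, at 369 to 384 CPM in control, 280 to 289 CPM with guide 1 and 266 to 273 CPM with guide 2 (log2 change −0.43, adjusted p = 7.98e-20). Both kept their direction and call under library-size scaling. KAT2A, the acetyltransferase, was 45.6 to 47.0 CPM in control and 51.6 to 58.3 CPM in the knockout libraries. Of 10 ATAC subunits none rose and 7 fell, but under library-size scaling 4 were higher and 2 lower, so only HCFC1, a scaffold shared with other chromatin complexes (log2 change −0.42), and YEATS2, a reader of acylated histones (−0.29), were lower under both. TADA2A, which takes the place of TADA2B in ATAC, was at 29.9 to 33.2 CPM in control and 31.0 to 34.5 CPM in the knockout libraries (log2 change 0.05, adjusted p = 0.297, and 0.21 with adjusted p = 4.62e-05 under library-size scaling).

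Other chromatin complexes held single members that moved far more than their neighbours. Their counts stand beside 58.1% of all genes tested that changed, 28.6% higher and 29.5% lower. Of 18 histone deacetylases 7 rose and 4 fell, and HDAC9 was 3.36-fold lower, from 18.0 to 19.1 CPM in control to 5.71 to 6.84 CPM with guide 1 and 4.79 to 5.09 CPM with guide 2. Of 31 Polycomb genes, which keep developmental genes silent, 4 rose and 19 fell. Under library-size scaling the balance turned, with 14 higher and 10 lower. CBX2, a reader of the Polycomb histone mark, fell 2.10-fold from 34.5 to 36.2 CPM to 15.4 to 18.3 CPM, and PHF19, which guides the methyltransferase to its sites, fell 1.78-fold from 189 to 190 CPM to 111 to 118 CPM with guide 1 and 89.1 to 107 CPM with guide 2. Both fell under library-size scaling too. Of 25 SWI/SNF remodeller subunits tested, 3 rose and 17 fell (8 higher and 10 lower under library-size scaling), led by PHF10, a subunit of the PBAF form, at 68.3 to 70.9 CPM in control and 34.3 to 39.8 CPM in the knockout libraries. Replication-dependent histone genes, whose messages normally lack a poly(A) tail, rose in 10 of 20 tested and fell in none. H1-2, a linker histone, went from 5.34 to 6.38 CPM to 15.2 to 17.7 CPM. The kit selects polyadenylated RNA, so these values are of the polyadenylated part only.

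The median log2 change of all genes tested was −0.009, with 28.6% called higher and 29.5% lower. The gene lists above and below stand beside these figures, which are not matched for level. Among genes of at least 100 CPM in control 65.6% fell and 15.6% rose, with a median log2 change of −0.134. Under library-size scaling 34.7% of them were lower and 41.9% higher. Whether abundant lists, such as ribosomal protein and housekeeping genes, fell more than other genes of like level was not tested. Lists were given a count and a median and no test. They fell into 3 kinds. In the first, nearly all members shifted slightly the same way. All 78 cytosolic ribosomal protein genes were tested, 76 fell and none rose, with a median log2 change of −0.212 and a lowest value of −0.441. Of 31 proteasome subunits 30 fell and 1 rose (median −0.191), of 42 S phase genes 34 fell and 3 rose (−0.264), and of 40 mitotic genes, listed for G2 and M, 33 fell and 1 rose (−0.197). Library-size scaling left 35 ribosomal protein genes lower and 4 higher, 13 proteasome genes lower and 2 higher, 26 S phase genes lower and 6 higher, and 20 G2 and M genes lower and 10 higher. The share of all counts in ribosomal protein genes, which needs no scaling, was 5.65 to 5.90% in control, 5.44 to 5.52% with guide 1 and 5.51 to 5.73% with guide 2, so the range of guide 2 overlapped that of control (exact permutation p = 0.0476 over both guides, unpaired). Libraries with the same replicate number were control 5.65, guide 1 5.44 and guide 2 5.60%, then 5.78, 5.52 and 5.51%, then 5.90, 5.50 and 5.73%, so that within each number both knockout libraries were below control. Members with larger falls included TYMS, which makes thymidylate for replication (1.61-fold), MCM3, of the replicative helicase (1.51-fold), and the mitotic kinesins KIF20A (1.55-fold) and KIF11 (1.54-fold). All 4 fell under library-size scaling as well.

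Many genes used as references changed. Of 26 housekeeping genes, 18 fell and 5 rose (13 lower and 10 higher under library-size scaling). YWHAZ, a 14-3-3 adaptor, fell 1.59-fold and VCP, an ATPase of protein quality control, fell 1.48-fold, whereas CHMP2A, of the membrane-remodelling ESCRT machinery, rose 1.28-fold. The genes with an interval within 0.1 of 0 under TMM scaling were SDHA, C1orf43 and B2M, whose log2 changes under library-size scaling were 0.13, 0.19 and 0.12, all called higher. SDHA, of the respiratory chain, was at 96.2 to 105 CPM in control and 94.3 to 103 CPM in the knockout libraries. C1orf43 was at 362 to 380 CPM in control and 373 to 387 CPM in the knockout libraries. B2M, the light chain of MHC class I, was at 574 to 606 CPM in control, 579 to 620 CPM with guide 1 and 529 to 576 CPM with guide 2.

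In the second kind of list most members shifted by a large amount. Interferon-stimulated genes are induced by interferon receptors through STAT and IRF factors, which bind a promoter element made of repeated GAAA half-sites. All 52 listed were tested, 45 rose, 3 fell and 4 did not pass the test, with a median log2 change of 1.18 (1.10 with guide 1 and 1.23 with guide 2), and 32 rose at least 2-fold. The promoter stretches below, from RefSeq promoter windows on GRCh38.p14, are shown because 3 of these genes rose strongly and LGALS3BP, with the same element, did not pass the test; they were chosen after the values were seen. Each reads 5′ to 3′ along the gene, and capitals mark GAAANNGAAA or its reverse complement.
ISG15 (chr1:1013344-1013439, plus strand): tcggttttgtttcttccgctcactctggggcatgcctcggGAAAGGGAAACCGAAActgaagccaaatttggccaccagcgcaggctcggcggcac
IFIT1 (chr10:89392467-89392569, plus strand): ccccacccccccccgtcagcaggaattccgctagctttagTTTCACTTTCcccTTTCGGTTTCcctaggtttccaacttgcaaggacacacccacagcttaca
IFI6 (chr1:27672236-27672388, minus strand): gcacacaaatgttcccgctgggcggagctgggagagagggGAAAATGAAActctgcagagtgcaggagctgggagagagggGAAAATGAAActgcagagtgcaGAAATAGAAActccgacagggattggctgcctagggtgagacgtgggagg
LGALS3BP (chr17:78979932-78980021, minus strand): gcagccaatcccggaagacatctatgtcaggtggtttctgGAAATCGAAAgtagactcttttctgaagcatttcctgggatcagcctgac

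ISG15, a ubiquitin-like modifier, was at 0.745, 0.845 and 0.784 CPM in control, 6.48, 5.86 and 6.90 CPM with guide 1 and 8.41, 8.21 and 7.28 CPM with guide 2. IFIT1, which binds foreign RNA, was at 3.86, 3.01 and 3.73 CPM in control, 16.1, 18.0 and 17.6 CPM with guide 1 and 27.6, 29.2 and 14.2 CPM with guide 2. IFI6, a mitochondrial survival protein, was at 7.80 to 8.47 CPM in control and 46.4 to 54.6 CPM in the knockout libraries. All knockout libraries lay above control for these genes, and guide 2 replicate 3 was the lowest of its group in each. The same library was low for IFI44L, at 8.00 CPM against 12.2 and 12.3 CPM in its group and 0.600 to 0.775 CPM in control. Without it the list still had 45 genes higher and 3 lower, with a median of 1.22. LGALS3BP, a secreted glycoprotein, was at 306 to 308 CPM in control, 318 to 342 CPM with guide 1 and 288 to 314 CPM with guide 2 (log2 change 0.04, adjusted p = 0.206, and 0.20 with adjusted p = 4.23e-08 under library-size scaling). OASL, of the oligoadenylate synthetase family, rose 25.1-fold from 0.246 to 0.326 CPM to 5.97 to 8.21 CPM. IFI27 was at 0.0297 to 0.0769 CPM in control and 1.92 to 2.35 CPM in the knockout libraries. Against the list, GBP2, a guanylate-binding protein, fell 1.81-fold from 12.2 to 13.6 CPM to 6.59 to 7.84 CPM, and MX2, an antiviral GTPase, fell 1.25-fold from 95.5 to 102 CPM to 76.3 to 80.0 CPM.

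**Figure D4:**
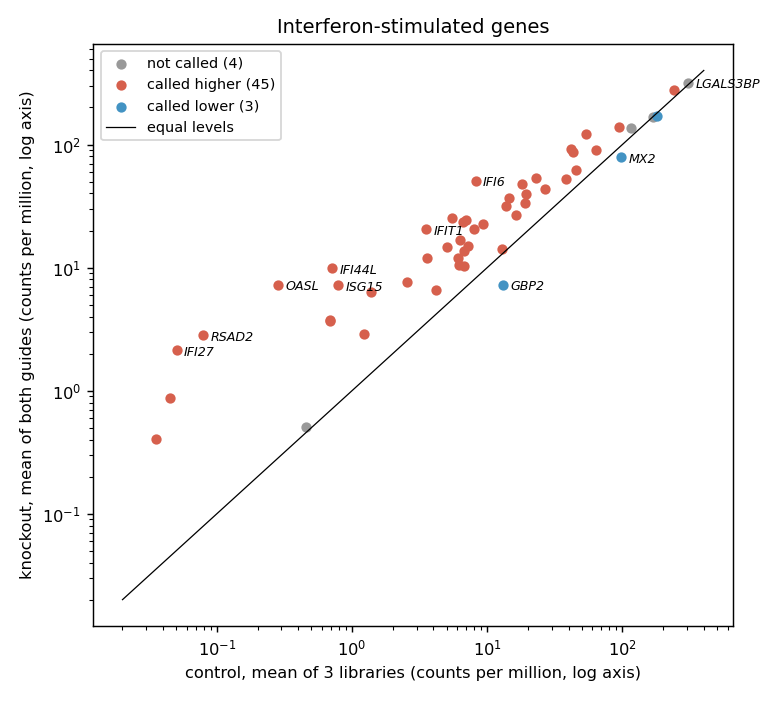
Mean level of the 52 interferon-stimulated genes in control against the mean of both knockout lines (CPM, log axes), by call. Points above the line were higher in knockout; 45 were called higher, and the genes near or below the line are mainly those above 10 CPM in control.

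The element was looked for on both strands of the windows of 250 bases before to 50 after each start. It was found in 32 of 44 interferon-stimulated promoters with a RefSeq window (72.7%), against 2.94% of the 12953 promoters of genes tested and 3.65% of all 27305 windows. Of the 32 genes with a match 29 rose and none fell, with a median log2 change of 1.18, and of the 12 without a match 10 rose and 1 fell, with a median of 0.896. A match describes letters in this window and not binding. Upstream of these genes, 16 of 31 tested sensors and signal carriers rose and 6 fell (19 and 2 under library-size scaling). The RNA sensors RIGI and IFIH1 rose 3.65-fold and 3.35-fold, from 4.76 to 5.29 CPM and from 3.13 to 4.09 CPM. STING1, the adaptor of DNA sensing, rose 2.38-fold. TLR4, the receptor for bacterial endotoxin, fell 2.37-fold, from 200.3 to 215 CPM in control to 96.4 to 101 CPM with guide 1 and 76.6 to 78.0 CPM with guide 2.

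Antigen presentation genes split by class. Of 13 MHC class II genes 12 fell, all at least 2-fold, with a median log2 change of −2.54, and 1 rose. CIITA, the coactivator that switches the class on, was at 100.1 to 110 CPM in control, 15.3 to 16.8 CPM with guide 1 and 5.52 to 6.45 CPM with guide 2, and HLA-DRA, an antigen-binding chain, was at 502 to 555 CPM, 121 to 122 CPM and 54.9 to 58.1 CPM. The gene that rose was CTSS, the protease that trims the class II chaperone, from 1.43 to 1.51 CPM to 7.33 to 8.86 CPM. Of 20 MHC class I genes 10 rose and 6 fell. NLRC5, the class I counterpart of CIITA, rose 2.46-fold from 6.97 to 7.10 CPM, while HLA-E, a ligand of natural killer receptors, fell 2.27-fold from 109 to 116 CPM to 52.1 to 57.6 CPM with guide 1 and 45.1 to 45.8 CPM with guide 2. Reads of the HLA genes can be shared between near-identical copies, so their values carry that uncertainty.

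Complement and coagulation genes rose as a list, with 21 of 32 tested higher, 5 lower and a median log2 change of 1.24. TFPI, an inhibitor of the tissue factor pathway, rose 6.82-fold from 2.27 to 2.92 CPM to 15.6 to 18.9 CPM, and CLU, a secreted chaperone that inhibits complement, rose 6.55-fold from 4.86 to 4.88 CPM to means of 29.6 CPM with guide 1 and 34.4 CPM with guide 2. F3, the tissue factor itself, rose 4.12-fold. In the other direction PLAT, the tissue plasminogen activator, fell 3.97-fold from 136 to 143 CPM to 41.9 to 46.4 CPM with guide 1 and 27.2 to 28.2 CPM with guide 2.

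Markers of other cell types moved as well. Of 20 epithelial markers tested 17 rose and 1 fell (median log2 change 1.43), and their summed level went from 318 to 321 CPM in control to 595 to 613 CPM with guide 1 and 625 to 653 CPM with guide 2. The epithelial cadherin CDH1 was at 0 in the control libraries and at most 0.0416 CPM elsewhere, and the most abundant of the list were KRT18, DSG2 and KRT8. SFN, a 14-3-3 protein of epithelia, rose 21.5-fold to 10.9 to 14.0 CPM, and PKP2, a desmosome protein, rose 6.04-fold. KRT14, a basal keratin, fell 8.18-fold from 5.37 to 5.46 CPM. Of 11 fibroblast markers tested 9 rose and 1 fell. Their summed level went from 97.9 to 106 CPM to 167 to 176 CPM and 146 to 155 CPM, of which S100A4, a calcium-binding protein, gave 87.3 to 98.2 CPM in control, 122 to 128 CPM with guide 1 and 94.2 to 104 CPM with guide 2. COL1A2 was at or near 0 in all libraries. Of 9 endothelial markers tested 3 rose and 4 fell, with a median log2 change of 0.359. Their list summed to 60.1 to 63.6 CPM in control, 13.0 to 13.4 CPM with guide 1 and 8.51 to 9.53 CPM with guide 2. In control most of this was FLT1, a VEGF receptor that stood at 53.5 to 56.0 CPM in control, 5.54 to 6.88 CPM with guide 1 and 1.66 to 2.90 CPM with guide 2. Leukocyte markers summed to 7.03 to 10.8 CPM in all libraries, most of it LYZ. Of 12 neuronal genes tested 5 rose and 1 fell. Neuronal genes summed to 61.8 to 62.8 CPM in control and 88.0 to 97.5 CPM in the knockout libraries. Most of this sum and of its rise was NEFL, a neurofilament gene. It stood at 38.7 to 41.1 CPM in control and 61.2 to 71.4 CPM in the knockout libraries. In bulk RNA a few cells of another type and a low level in every cell cannot be told apart, and the part of other cells in these values was not tested.

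In the third kind of list members moved far in both directions, so that the median hid the change. Of 33 genes of the actin and contractile cytoskeleton tested 19 rose and 12 fell, with a median log2 change of only 0.136. TAGLN, an actin-binding protein of smooth muscle, rose 15.1-fold from 2.17 to 2.55 CPM in control to a mean of 28.7 CPM with guide 1 and 41.5 to 47.1 CPM with guide 2. MYL9, a myosin light chain, rose 6.71-fold from 5.83 to 6.76 CPM to 35.9 to 38.6 CPM and 43.1 to 48.6 CPM. CNN3, a non-muscle calponin, fell 2.08-fold from 403 to 422 CPM to 191 to 210 CPM. Of 29 matrix-degrading proteases and their inhibitors 14 rose and 9 fell, most at least 2-fold (10 and 6). The stromelysin MMP3 rose 29.8-fold from 0.830 to 0.999 CPM to 24.2 to 29.9 CPM, and the neutrophil collagenase MMP8 fell 36.2-fold from 8.87 to 9.36 CPM to 0.539 to 0.610 CPM with guide 1 and 0.0842 to 0.132 CPM with guide 2. Of 30 collagen genes tested 9 rose and 16 fell. COL17A1, a collagen of hemidesmosomes, rose 14.3-fold from 0.237 to 0.611 CPM, and COL9A3, a cartilage collagen, fell 4.08-fold from a mean of 114 CPM. Of 30 integrins and laminins tested 13 rose and 13 fell. ITGB8, which activates latent TGF-beta, fell 5.09-fold, and LAMA1, a laminin chain of early basement membranes, rose 5.86-fold.

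**Figure D5:**
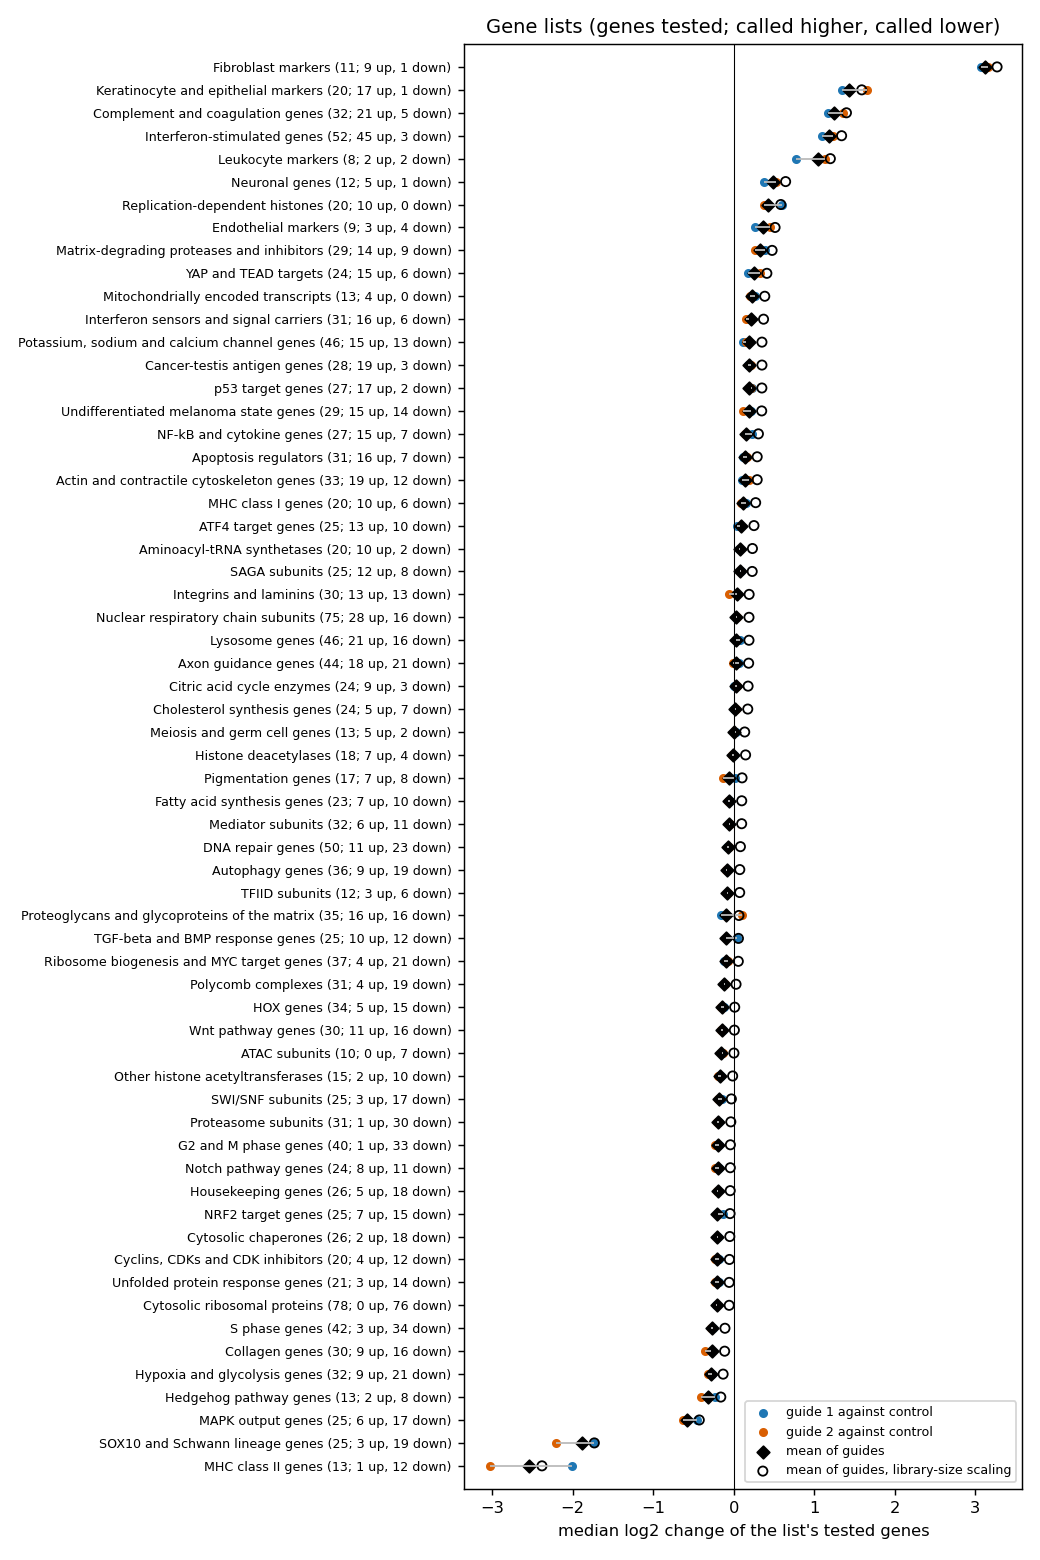
Median log2 change of the tested genes of 62 lists, ordered by the mean of guides (diamonds), with guide 1 (blue), guide 2 (orange) and the mean of guides under library-size scaling (open circles); labels give genes tested and called. MHC class II genes (−2.54) and fibroblast markers (3.12) lie at the ends, and most lists lie within 0.3 of 0.

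Of 13 Hedgehog genes tested 8 fell, 5 of them at least 2-fold, and 2 rose. Without control replicate 3 none of them rose, and 1 rose without control replicate 2 or without guide 1 replicate 3, while 8 fell each time. The receptors PTCH1 (2.33-fold) and SMO (2.11-fold) and the co-receptors CDON (2.11-fold) and GAS1 (4.87-fold) fell, and the co-receptor BOC rose 1.25-fold from a mean of 1.68 CPM (adjusted p = 0.0192, and 0.103 without control replicate 2). Of 30 Wnt genes tested 16 fell and 11 rose (14 and 13 under library-size scaling), with the receptors FZD7 (3.12-fold) and FZD8 (3.43-fold) lower and the ligand WNT3 (3.17-fold) and the R-spondin receptor LGR5 (16.0-fold, from a mean of 0.246 CPM) higher. Of 24 Notch genes tested 11 fell and 8 rose (9 and 9 under library-size scaling). In the Notch list 5 rose and 5 fell at least 2-fold, and the log2 changes ran from −1.89 to 3.26. The target HES1 fell 2.65-fold and the coactivator MAML3 3.70-fold. Among 44 axon guidance genes tested 21 fell and 18 rose, an order that library-size scaling turned to 16 lower and 22 higher. Of these, the plexin receptor PLXNA2 rose 3.73-fold and the receptor ROBO2 fell 3.41-fold. Of 46 ion channel genes tested 15 rose and 13 fell (21 and 10 under library-size scaling), with the potassium channels KCNK1 3.69-fold higher and KCNN4 2.26-fold lower. With a minimum mean of 1 CPM 25 channel genes remained, of which 9 were higher and 11 lower. Of 25 genes of MAPK output, which read the pathway driven by BRAF in this line, 17 fell, 7 of them at least 2-fold, and 6 rose, none of them 2-fold, and of 24 YAP and TEAD targets 15 rose and 6 fell.

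Growth and death genes moved unevenly. CDK6, the kinase that opens the cell cycle with cyclin D, was at 492 to 522 CPM in control, 252 to 258 CPM with guide 1 and 221 to 236 CPM with guide 2, and fell 2.10-fold. The inhibitor CDKN1C fell 8.74-fold from 6.58 to 6.93 CPM to 1.38 to 1.91 CPM with guide 1 and 0.339 to 0.431 CPM with guide 2. CCNE1, the cyclin of S phase entry, rose 1.31-fold. Of 27 tested targets of p53, a factor that halts damaged cells, 17 rose and 2 fell (25 higher and 0 lower under library-size scaling). GDF15, a secreted stress cytokine, rose 8.58-fold from 0.768 to 1.11 CPM, and FAS, a death receptor, rose 1.61-fold. Of 50 DNA repair genes 23 fell and 11 rose, a split that library-size scaling turned to 10 lower and 24 higher. XRCC4, of end joining, rose 1.72-fold from 22.4 to 23.6 CPM, and ERCC1, of excision repair, fell 1.73-fold from 80.2 to 85.9 CPM. Of 31 apoptosis regulators tested 16 rose and 7 fell. CASP10, an initiator caspase, rose 2.42-fold, and the survival factor BCL2 fell 1.63-fold.

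Stress and metabolic programs were divided by branch. Of 21 unfolded protein response genes tested 14 fell and 3 rose (11 lower and 7 higher under library-size scaling), among them the chaperones HSPA5 and HSP90B1 of the endoplasmic reticulum, 1.47-fold and 1.42-fold lower. Of 26 cytosolic chaperones 18 fell and 2 rose, while library-size scaling gave 9 lower and 10 higher. HSPB8, a small heat shock protein, rose 3.90-fold against its list. Of 25 ATF4 targets tested 13 rose and 10 fell (15 and 6 under library-size scaling), with ATF3 2.00-fold higher and DDIT4, an inhibitor of mTOR, 4.22-fold lower, from 28.5 to 30.8 CPM to 8.74 to 10.1 CPM with guide 1 and 4.67 to 5.58 CPM with guide 2. Of 25 NRF2 targets 15 fell and 7 rose (10 and 9 under library-size scaling). NQO1, a quinone reductase, fell 3.22-fold from 474 to 499 CPM to 169.9 to 171 CPM with guide 1 and 132 to 134 CPM with guide 2, and ABCC3, a conjugate exporter, rose 4.00-fold. Of 32 hypoxia and glycolysis genes 21 fell and 9 rose. ALDOA, a glycolytic enzyme, fell 1.90-fold, and CA12, a carbonic anhydrase, rose 9.72-fold from a mean of 0.281 CPM. ACSL5, which activates fatty acids, rose 16.0-fold from 0.432 to 0.563 CPM to 7.29 to 8.91 CPM, whereas its relative ACSL3 fell 1.93-fold.

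Respiratory chain genes moved little. Of 75 nuclear subunits 28 rose and 16 fell, the log2 changes ran from −0.33 to 0.41, and under library-size scaling 57 were higher and 3 lower. All 13 mitochondrially encoded transcripts had a positive log2 change, 4 rose and none fell, and the count was 8 without control replicate 1 and 2 without control replicate 2 or 3. Their share of the counts was 0.661 to 0.898% in control, 0.983 to 1.02% with guide 1 and 0.908 to 1.00% with guide 2. Control replicate 1 was the highest control library. This share can move with RNA quality as well as with expression, and its part in the other results was not tested.

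Germline lists differed. Of 32 meiosis and germ cell genes listed 13 were tested, 5 rose and 2 fell, with a median log2 change of −0.00029. Cancer-testis antigen genes rose more often than they fell. Of 28 tested cancer-testis antigen genes, which are silent in most adult tissues and active in many melanomas, 19 rose and 3 fell (24 higher and 0 lower under library-size scaling). SPANXB1 rose 4.71-fold from 2.90 to 3.40 CPM to 13.3 to 15.9 CPM; it belongs to a family of near-identical genes, between which reads can be shared. Of 34 HOX genes tested, which set position along the body axis, 15 fell and 5 rose (11 and 8 under library-size scaling). HOXB8 fell 7.15-fold from 13.6 to 14.3 CPM to 2.02 to 2.67 CPM with guide 1 and 1.62 to 1.73 CPM with guide 2, and HOXB9 fell 3.35-fold.

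Changed genes lay on all chromosomes. Genes with a mean of at least 1 CPM were taken over 23 chromosomes. Their median log2 change ran from −0.0793 to 0.0158, and the share called higher from 22.1 to 37.8% (40.2 to 59.3% under library-size scaling). In 285 windows of 10 Mb with at least 15 such genes the median ran from −0.232 to 0.254. By kind of gene, and again at a mean of at least 1 CPM, 33.7% of 12166 protein-coding genes rose and 39.2% fell (54.8% higher and 21.1% lower under library-size scaling). Long intergenic noncoding RNAs rose in 44.6% of 383 and fell in 20.6% (56.1% and 13.6% under library-size scaling), and antisense genes rose in 39.7% of 292 and fell in 20.5% (51.0% and 14.0%). Processed pseudogenes went the other way, with 6.45% of 636 higher and 41.7% lower (13.8% and 21.5% under library-size scaling). Reads of a processed pseudogene can come from its parent gene, and without a known strand setting those of an antisense gene from its partner.

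In all, 10 short motifs were counted in the promoters of genes that changed at least 2-fold. They were searched on both strands, and shares are of genes with a window. The AP-1 motif TGANTCA was in 11.6% of 1200 promoters of genes at least 2-fold higher and 6.53% of 658 at least 2-fold lower, against 5.44% of the 12953 tested. The TATA box TATAAA was in 12.0%, 9.42% and 6.85%. The ETS motif CCGGAAGT, common in promoters of widely expressed genes, was in 1.33% and 0.456%, against 7.72%. At a mean of at least 1 CPM the ETS shares were 1.46%, 0.491% and 8.93%, and the AP-1 shares 10.4%, 5.90% and 4.63%, so the order held when weakly expressed genes were left out. The SOX motif ACAAAG was in 13.7% of the genes at least 2-fold higher, 17.0% of those lower and 11.6% of all tested. At a mean of at least 1 CPM its shares were 15.3%, 15.0% and 10.8%, so here the order of higher and lower did not hold. The CCAAT box CCAAT was in 30.8%, 39.1% and 36.6%. The TEAD motif GGAATG was in 14.7%, 10.8% and 11.4%, and the E-box CACGTG in 8.33%, 7.29% and 9.70%. The E2F motif TTTCCCGC was in 1.33%, 1.22% and 2.46%, the CRE TGACGTCA in 1.75%, 2.13% and 3.06%, and GAAANNGAAA in 4.92%, 3.34% and 2.94%. The shares were not tested, and base composition was not matched. Among genes described above that fell, PDE3A and HDAC9 (log2 change −4.55 and −1.75) also had the AP-1 motif in their promoters. The promoters of CPA4 and IL11, described above, are shown because they are well-expressed genes of the first class that hold the AP-1 motif, in capitals.
CPA4 (chr7:130293073-130293160, plus strand): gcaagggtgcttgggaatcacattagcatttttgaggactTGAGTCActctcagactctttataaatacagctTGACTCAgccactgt
IL11 (chr19:55370513-55370599, minus strand): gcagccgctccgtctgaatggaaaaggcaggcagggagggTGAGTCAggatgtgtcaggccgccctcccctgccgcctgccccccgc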

How the data were processed

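Poly(A) RNA of A375 cells was sequenced from stranded libraries, per the labels' protocols. The deposited values are raw counts per Ensembl gene, made with HISAT2 and HTSeq on hg38, per the submitters' processing notes; no versions, annotation release or strand setting are named there. Symbols came from a gene name table (58207 of 58721 identifiers) and biotypes from GENCODE 29. Counts of all 18 libraries were fitted with 6 group means in edgeR 4.0.16 (R 4.3.3; TMM, filterByExpr, robust quasi-likelihood F test, 12 residual degrees of freedom, common biological coefficient of variation 4.02%). The guides were weighted equally, p-values were Benjamini-Hochberg adjusted over 21060 genes, and genes were called at an adjusted p under 0.05. CPM use TMM library sizes except where a share of the library total is stated. The test was checked on simulated data in which few genes changed, equally up and down. That setting differs from these data, so the check does not bear on the choice of scaling.

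Genes named were TADA2B and SOX10, the genes with the largest fold (control at least 10 CPM) or CPM change, those switched on or off with the highest level, up to 4 called members of a list with the largest change and up to 2 in the other direction, housekeeping genes with an interval within 0.1 of 0, and least-changed or defining members. In addition, KAT2A, TADA2A, KRT18, DSG2, S100A4, PRAME, ISG15, IFIT1 and IFI6 were added after their values were seen. So were S100B and NEFL, which are not among the 127 genes counted in the last sections. Members and lists were chosen with earlier results of these data known. Alternatives were other scalings (DESeq2 1.42.0 size factors among them), other filters, DESeq2's test, the 9 libraries alone, a replicate block and leaving out each library. Libraries with the same replicate number deviated together (correlations of 0.154 to 0.345 in all 9 pairs of groups and numbers). This pairing comes from the check and not from a stated batch. Among the fits it entered only the replicate block. The main fit and the permutation tests left the libraries unpaired. Promoter sequences are from RefSeq (GRCh38.p14).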

Additional observations from a re-analysis of the deposited data

Results flagged for a closer look

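The guides differed from each other at 74 of the 127 genes named above and tested, by a contrast of guide 2 against guide 1 in edgeR's quasi-likelihood fit at an adjusted p under 0.05, against 1841 of all genes tested (8.74%). At 67 of the 74, both guides lay on the same side of control and guide 2 further from it. The named genes were chosen for their distance from control, so the shares are not comparable. The values below are the log2 change with guide 2 minus that with guide 1. The difference was −0.94 for SOX10, −1.45 for CIITA, −1.12 for HLA-DRA and −0.27 for HLA-E, and the class II genes named thus stood lower with guide 2, as SOX10 did.

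Among genes of the matrix and the cell surface it was −1.11 for FAT3, −0.89 for HMCN1, −0.87 for HAPLN1, −1.02 for COL19A1, −0.88 for COL9A3, −1.01 for ITGB8, −1.10 for TIMP3 and −2.33 for MMP8. Secreted proteins gave −0.63 for SERPINE2, −0.48 for THBS1 and −0.66 for PLAT. Enzymes, receptors and other proteins that fell gave −2.84 for ART3, −1.14 for PDE3A, −1.66 for KRT14, −1.47 for FLT1, −0.36 for TLR4, −0.83 for ROBO2 and −0.31 for KCNN4. The regulators gave −2.06 for CDKN1C, −0.16 for CDK6, −0.91 for DDIT4, −0.31 for HDAC9, −0.19 for PHF19, −0.13 for PHF10 and −0.48 for HOXB8. The Hedgehog, Wnt and Notch genes gave −0.79 for GAS1, −0.33 for CDON, −0.49 for FZD8, −0.25 for FZD7, −0.48 for HES1 and −0.38 for MAML3.

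Smaller differences were found in housekeeping, metabolic and growth genes: −0.36 for NQO1, −0.22 for ALDOA, −0.20 for ACSL3, −0.19 for GAPDH, −0.14 for HSP90AA1, −0.09 for HSP90B1, −0.08 for HSPA5, −0.13 for YWHAZ and −0.09 for VCP, and −0.19 for KIF20A, −0.10 for KIF11 and −0.12 for MCM3. Genes that rose further with guide 2 gave 0.69 for ANKRD1, 0.63 for TAGLN, 0.40 for IL11, 0.34 for MYL9, 0.34 for F3, 0.34 for LAMA1, 0.29 for KRT8 and 0.32 for PKP2, and 0.25 for TGM2, 0.19 for CPA4, 0.22 for CLU, 0.23 for MMP3, 0.27 for PLXNA2, 0.22 for XRCC4 and 0.13 for CHMP2A. In the interferon lists it was 0.19 for STING1 and 0.25 for IFIH1.

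The exceptions, where guide 2 was nearer to control or the guides lay on both sides of it, were −0.14 for CD55, −0.35 for S100A4, −0.08 for TGFBI, 0.14 for TADA2B, −0.14 for B2M, −0.66 for LYZ and −0.10 for LGALS3BP. B2M, LGALS3BP and LYZ had a log2 change above 0 with guide 1 and below 0 with guide 2. Of genes near 0 in 1 group, the fitted difference was −5.42 for SLC24A2, 0.57 for TNNT2 and 0.52 for LYPD6B, values that depend on the prior count and are no bound.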

How the results depend on the processing

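Library-size scaling gave 9112 genes higher and 3545 lower for the mean of guides, 8382 and 3103 for guide 1, and 8874 and 3478 for guide 2; it moved the median of all genes by 0.156 on the log2 scale. A minimum mean of 1 CPM left 1444 genes changed at least 2-fold, 843 higher and 601 lower, since fewer genes were tested. Leaving out 1 library in turn gave 11381 to 12264 genes changed (5609 to 6030 higher, 5767 to 6234 lower), 10359 to 11362 with guide 1, 11088 to 11800 with guide 2, and 3135 to 3226 at least 2-fold (1999 to 2062 higher, 1100 to 1180 lower). With the replicate block the counts were 12322, 11190 and 11874, and 3147 at least 2-fold, and it changed the call of none of the 127 genes named. Of 2157 values of those genes under the alternatives, 2128 kept direction and call. SDHA reversed to 0.13 with library-size scaling, 0.01 with upper-quartile scaling, and 0.00 with the 1 CPM minimum, and ranged from −0.06 to 0.00 over the left-out libraries (0.00 without control replicate 3), and B2M to 0.12 and PRAME to 0.05 with library-size scaling. MLANA lost its call in 10 settings, BOC in 3 and LYZ in 1; C1orf43, LGALS3BP, TADA2A and B2M gained one in 3, 4, 1 and 1. Of 62 list medians, 15 changed sign with library-size scaling and 10 with any other alternative. Complement genes lower went from 5 to 3 and Notch genes higher from 8 to 5 with the 1 CPM minimum. Depth limits genes at or under 0.0359 to 0.0461 CPM, where a library holds 3 counts.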
